A study of Mus musculus with 6 samples.

Results

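The genes described here are the cadherins and protocadherins of mouse dorsal root ganglia, taken 24 h after renal ischemia-reperfusion (I/R) or a sham operation. They are all genes of the deposited count table with a symbol made of Cdh and a number, or beginning with Pcdh, except Cdh5. This gave 92 of 57180 genes. They comprise 5 type I cadherins, 12 type II cadherins, 5 divergent cadherins, 12 protocadherins encoded singly and 58 clustered protocadherins (14 alpha, 22 beta and 22 gamma).

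In the I/R group (3 wild-type mice), blood flow to the left kidney was stopped by a clamp on the renal pedicle for 28 min and then restored, and the right kidney was taken out. The sham group (3 wild-type mice) was operated on alike but not clamped, per the labels, which do not mention the right kidney for sham mice. Ganglia from levels T8 to L2 were collected, and each mouse gave 1 library of polyadenylated RNA. The labels give no strain, sex or age. In bulk ganglia, fewer cells of a type and less RNA per cell cannot be told apart.

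Cadherins are calcium-dependent adhesion molecules of the cell surface. Classical (type I and type II) cadherins bind partners of the same kind on the neighbouring cell and are tied to actin through catenins. Protocadherins have different cytoplasmic parts that do not bind beta-catenin in the classical way. Neurons choose among the promoters of the clustered protocadherins, and the resulting combinations take part in self-recognition of axons and dendrites. In ganglia, cadherins hold glia to axons and to each other.

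The authors' deposited annotation listed a cadherin repeat domain for 92 of 92 genes. It gave the catenin-binding cytoplasmic region to 17 genes, which were the 5 type I and the 12 type II cadherins. The cytoplasmic tail shared within a protocadherin cluster was listed for 36 genes, the 14 alpha and the 22 gamma members. A further protocadherin cytoplasmic domain was listed for 46 genes across the groups, namely 2 of 14 alpha, 22 of 22 beta, 21 of 22 gamma and 1 of 5 delta-2 genes. The catenin-binding region and the shared tail thus follow the named groups, and the further cytoplasmic domain does not.

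No cadherin or protocadherin passed the test for a difference between I/R and sham ganglia. Of the 92 genes, 88 had enough reads to be tested, and 0 were called at an adjusted p under 0.05 (edgeR's quasi-likelihood test, adjusted over all 16346 genes tested). Among all genes tested, 188 were called, which is 1.15%. Of these, 118 were higher (0.722%) and 70 lower (0.428%). DESeq2 also called 0 of the 88, against 1.91% of all genes, and limma-voom called 0, against 1.08%. At an unadjusted p under 0.05 there were 8 of the 88 genes (9.09%), against 10.5% of all genes tested. Of the 8, 5 were on the higher side (5.7% of all genes) and 3 on the lower (4.8% of all genes). DESeq2 gave 6 and limma-voom 9 at that level.

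The intervals give a range of fold changes for each gene taken alone, and were not adjusted over the 88 genes. The 95% interval of the fold change lay within 2-fold in both directions for 83 of the 88 genes, and within 1.5-fold for 61. A fitted change of 1.5-fold or more was seen in 2 genes (2.27%, against 6.4% of all genes), and of 2-fold or more in 1 gene, Pcdhgb8 (1.14%, against 2.04%). The median log2 fold change was 0.06, with quartiles at -0.10 and 0.16. Above 0 lay 56 genes (63.6%, against 50% of all genes tested), and 32 lay below. The 50% is also the background for the counts above 0 given below. Genes measured in the same libraries are not independent, and these shares were not tested. Over all genes tested the median was 0.00 and the quartiles were -0.13 and 0.13. The median absolute log2 fold change was 0.13 in both sets.

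**Figure D1:**
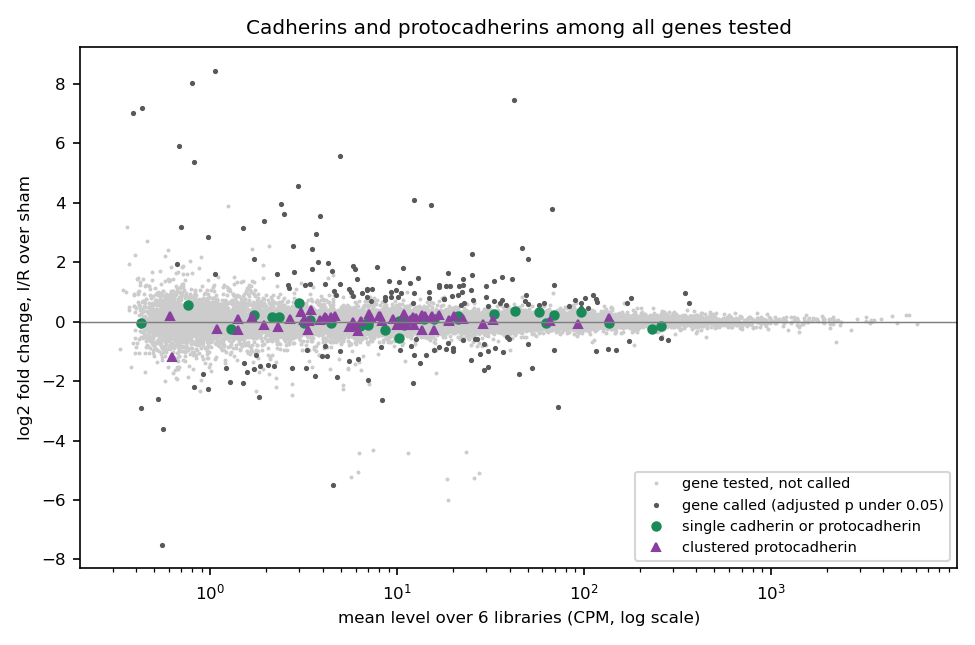
Log2 fold change (I/R over sham) against mean level (CPM, the read count scaled to library size, log scale) for all 16346 genes tested. Green circles are single cadherins and protocadherins, purple triangles clustered protocadherins and dark points called genes. The 88 cadherin and protocadherin genes lie among the uncalled genes, between -1.18 and 0.62.

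The libraries differed in how long and short transcripts were represented, and most cadherins are long. The family's members of at least 1 CPM (84 genes) had a median length of 4722 bases, against 2925 bases for all genes at that level. Their median log2 deviation from the mean of the 6 libraries was -0.11, 0.08 and 0.11 in I/R 1 to 3 and 0.01, 0.03 and -0.10 in sham 1 to 3. Genes over 6000 bases deviated by -0.10, 0.03 and 0.14 in I/R 1 to 3 and -0.01, 0.01 and -0.06 in sham 1 to 3. Genes up to 1000 bases deviated by 0.26, -0.11 and -0.34 in I/R 1 to 3 and by -0.02, -0.09 and 0.31 in sham 1 to 3, opposite in sign to the long genes in every library but sham 1. I/R 1 held the lowest value for 27 of the 88 genes (30.7%, against 18.3% of all genes) and sham 3 for 33 (37.5%, against 22.2%). These libraries also had the highest shares of ribosomal protein transcripts, at 1.13% in I/R 1 and 1.17% in sham 3, against 0.707% to 0.869% in the other 4. Their mitochondrial shares were the highest too, at 1.26% in I/R 1 and 1.33% in sham 3, against 0.769% to 1.09% in the others. The part of these shares in the family's levels was not tested. With offsets corrected for length, an alternative chosen after seeing the data, the family's median log2 fold change was 0.03 and 0 members were called.

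**Figure D2:**
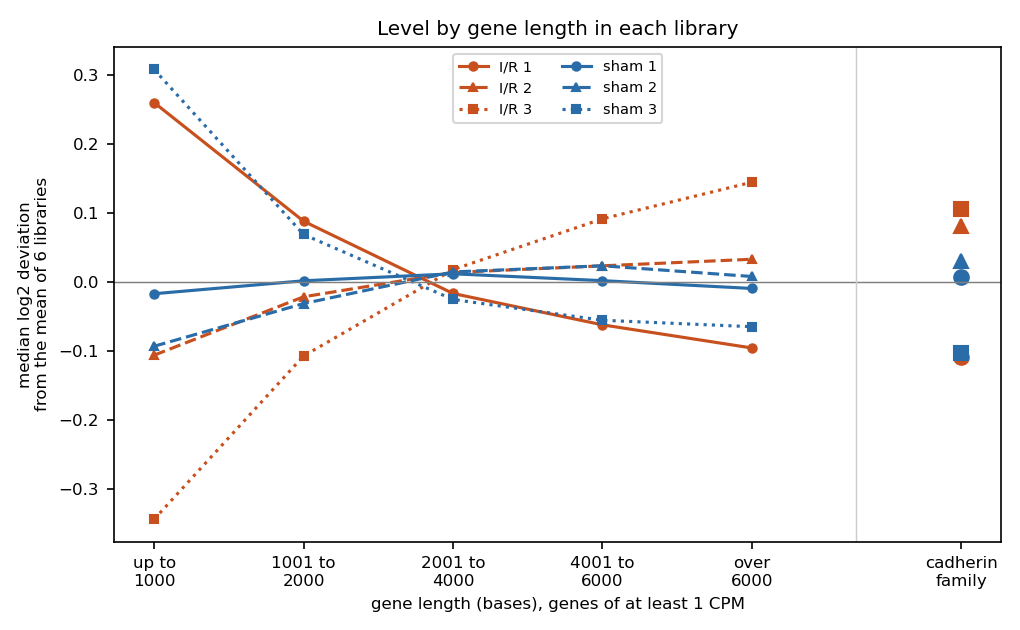
Median log2 deviation of each library from the mean of the 6 libraries, for genes of at least 1 CPM in 5 classes of length (bases), with the 84 cadherin family genes at the right. Orange lines are I/R and blue lines sham libraries. I/R 1 and sham 3 fall with length and I/R 3 rises, and the cadherin family lies low in I/R 1 (-0.11) and sham 3 (-0.10).

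Leaving out the 2 libraries in which the family was lowest, I/R 1 and sham 3, left 2 mice a group. That fit, also chosen after seeing the data, called 2 of the 88 genes, against 1.8% of all genes (296 of 16422). Its calls are a description and no independent evidence, since the libraries left out are those with the family's own lowest values, and for Cdh19 the pair that made the groups overlap. Cdh19 was higher by 0.55 ± 0.11 on the log2 scale (SE, edgeR adjusted p = 0.0358), and Cdh15 was lower (-0.70 ± 0.14, edgeR adjusted p = 0.0386).

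The ganglia carried high levels of the markers of neurons and glia, which define this tissue. The 9 sensory neuron markers summed to 9398 to 10560 CPM in I/R and 9426 to 10080 CPM in sham, and 0 were called. The 7 Schwann cell and myelin markers summed to 5700 to 6419 CPM in I/R and 6726 to 6990 CPM in sham, so that every I/R sum lay below every sham sum, though 0 single markers were called. The 6 satellite glia markers summed to 2243 to 3217 CPM in I/R and 2917 to 3191 CPM in sham, and 1 of them (Fabp7) was lower. Of 12 arachnoid and meningeal barrier markers, 9 were lower in I/R, with sums of 29.0 to 37.0 CPM in I/R and 145 to 195 CPM in sham. Of 6 fibroblast markers 5 were lower, with sums of 526 to 645 CPM in I/R and 887 to 1066 CPM in sham. All 5 red cell markers were lower, with sums of 52.8 to 86.6 CPM in I/R and 181 to 271 CPM in sham. Of 5 mast cell markers 2 were lower (Mcpt4 and Cma1), and of 6 macrophage markers 1 was higher (Cd163). The 7 endothelial markers and the 6 of pericytes and smooth muscle had 0 calls. Of 5 markers of spinal cord oligodendrocytes, 2 were tested and 0 called. Mobp measured 1.7, 3.5 and 2.8 CPM in I/R 1 to 3 and 18.7, 3.2 and 12.7 CPM in sham 1 to 3. Mal, the other marker tested, ran from 140 to 162 CPM in I/R and from 160 to 170 CPM in sham. The part of these cells in the cadherin levels was not tested.

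Levels of different genes were compared per length, as TPM (the count divided by the deposited gene length, then scaled to a fixed library total). The ganglia held 6 members at 50 TPM or more, 17 at 10 TPM or more and 79 at 1 TPM or more. Pcdh1 (mean 153.5 TPM, range 132.1 to 189.7 over the 6 libraries) and Cdh1 (149.4 TPM, range 114.1 to 176) stood at the top. Below them came Cdh11 (61.7 TPM), Pcdhac2 (59.8), Cdh2 (51.0), Pcdhgc3 (50.7) and Pcdh9 (48.0), whose ranges overlapped from each to the next. The list of the 12 highest closed with Pcdhac1 (31.0 TPM), Cdh19 (28.2), Pcdh10 (22.7), Cdh18 (19.8) and Pcdh7 (16.8). Along this order, only the steps between Cdh1 and Cdh11 and between Pcdh9 and Pcdhac1 separated neighbours whose ranges did not overlap. The 12 genes made up 65.25% to 67.7% of the family's summed TPM. The places of Pcdhac2, Pcdhgc3 and Pcdhac1 are uncertain, since how reads over exons shared within their clusters were counted is not stated.

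**Figure D3:**
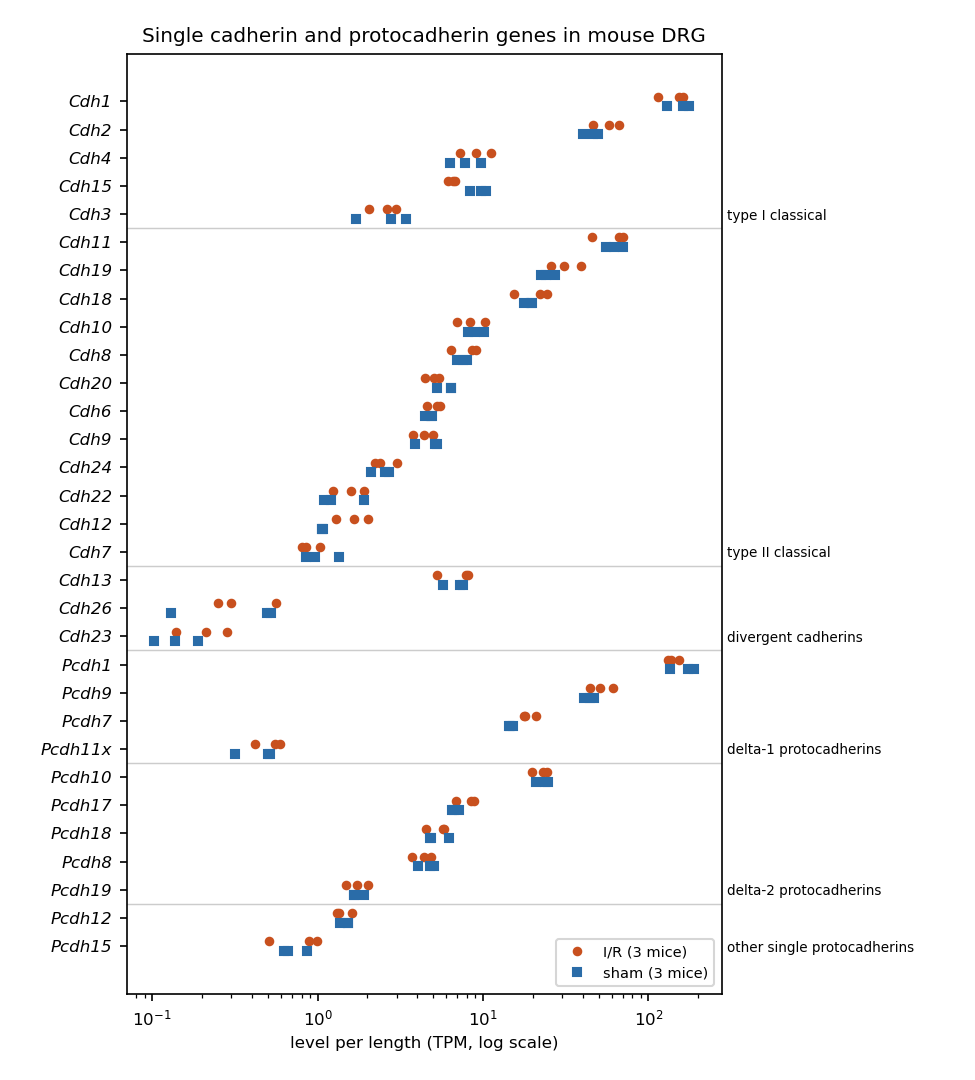
Level per length (TPM, log scale) of the single cadherin and protocadherin genes in each library, with I/R libraries as orange circles and sham libraries as blue squares. Pcdh1 and Cdh1 lie above 100 TPM in every library, and for most genes the orange and blue points overlap.

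Type I cadherins are the best known classical cadherins. Cdh15 (M-cadherin, known from muscle precursor cells) had the smallest p of the whole family. It measured 9.14, 8.28 and 7.39 CPM in I/R mice, against 13.2, 12.2 and 11.1 CPM in sham mice. Every I/R value lay below every sham value, and the log2 fold change was -0.56 ± 0.13 (SE; 95% interval -0.85 to -0.26). Its edgeR adjusted p of 0.1015 did not pass, and ranged from 0.0534 to 0.609 over 14 other settings (normalization, test, filter, block and libraries left out).

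Skeletal muscle RNA varied between these libraries beside Cdh15. The 10 skeletal muscle markers summed to 4.84, 12.7 and 8.44 CPM in I/R 1 to 3 and to 561, 14.5 and 280 CPM in sham 1 to 3. Of the 9 tested, all lay below 0 at an unadjusted edgeR p under 0.05, and 1 was called (Myl1, edgeR adjusted p = 0.0465). Cdh15 measured 12.2 CPM in sham 2, the sham library with the lowest muscle sum. The part of muscle RNA in the Cdh15 difference was not tested. The defining markers of muscle satellite cells (Pax7, Myf5, Myod1 and Myog) summed to at most 0.0989 CPM in I/R and at most 0.103 CPM in sham. All 4 were at 0 in I/R 2, I/R 3 and sham 2. A count of 0 allows up to 3 counts, which in these libraries equals 0.137 to 0.154 CPM, more than any of these sums.

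The promoter of Cdh15 is shown because this gene had the smallest p of the family. It runs 250 bases before to 50 after the gene start (RefSeq, GRCm38.p6, chr8:122848124-122848423, plus strand), with capitals for the letters CANNTG, the E-box bound by basic helix-loop-helix factors, which reads the same on both strands.
Cdh15: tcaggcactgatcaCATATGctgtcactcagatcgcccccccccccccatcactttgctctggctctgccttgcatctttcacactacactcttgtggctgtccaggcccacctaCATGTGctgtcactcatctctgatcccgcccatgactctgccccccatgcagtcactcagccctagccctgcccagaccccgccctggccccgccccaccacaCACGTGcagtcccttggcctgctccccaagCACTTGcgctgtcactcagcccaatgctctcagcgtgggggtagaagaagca
It held 4 matches, against a median of 1 over 32851 promoters of the same length, of which 72.3% held at least 1. A match is a description of the letters and not a binding site.

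The other type I cadherins did not pass the test either. Cdh2 (N-cadherin, of neurons and glia) measured 92.7, 107.8 and 118.4 CPM in I/R, against 86.9, 91.4 and 79.6 CPM in sham. The groups did not overlap, and the log2 fold change was 0.31 ± 0.11 (SE, edgeR adjusted p = 0.347). Cdh1 (E-cadherin, found in junctions of Schwann cells and on some sensory neurons) measured 209, 263 and 264 CPM in I/R, against 278, 299 and 235 CPM in sham. The groups overlapped, and the log2 fold change was -0.14 (95% interval -0.42 to 0.14). Cdh3 (P-cadherin) and Cdh4 (R-cadherin) had log2 fold changes of -0.05 and 0.19. Of the 5 genes, 2 lay above 0 and 3 below.

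Type II cadherins mark subsets of neurons and glia, and 7 of the 12 lay above 0 and 5 below (median log2 fold change 0.06). Cdh12 (a cadherin of the brain) measured 3.02, 3.63 and 4.2 CPM in I/R, against 2.31, 2.30 and 2.47 CPM in sham. Every I/R value lay above every sham value, with a log2 fold change of 0.62 ± 0.19 (SE; 95% interval 0.18 to 1.05; edgeR adjusted p = 0.242). This was the highest fitted change in the family.

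Cdh20 was the type II cadherin lower in every I/R mouse. It measured 7.36, 7.84 and 7.99 CPM in I/R, against 9.92, 9.85 and 8.64 CPM in sham (log2 fold change -0.29 ± 0.13, edgeR adjusted p = 0.460). Cdh19, a cadherin of neural crest-derived glia, measured 41.8, 46.5 and 56.3 CPM in I/R, against 36.4, 33.8 and 43.3 CPM in sham. I/R 1 lay below sham 3, so the groups overlapped (log2 fold change 0.35 ± 0.14, edgeR adjusted p = 0.386). Cdh11 (OB-cadherin, of mesenchymal cells) measured 106, 146 and 147 CPM in I/R, against 135, 152 and 128 CPM in sham, with a log2 fold change of -0.06.

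The remaining type II cadherins overlapped between the groups. Above 0 were Cdh6 (log2 fold change 0.09), Cdh8 (0.08), Cdh18 (0.10), Cdh22 (0.16) and Cdh24 (0.05). Below 0 were Cdh7 (-0.25), Cdh9 (-0.14) and Cdh10 (-0.10).

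Divergent cadherins lack the catenin-binding tail, and most were scarce. Cdh13 (T-cadherin, held in the membrane by a lipid anchor) averaged 10.3 ± 1.84 CPM in I/R and 10.2 ± 1.14 CPM in sham (SD, n = 3 each), with a log2 fold change of 0.02. Cdh23, a tip-link protein of hair cells, averaged 0.907 CPM in I/R and 0.617 CPM in sham (log2 fold change 0.55). Cdh26 averaged 0.415 CPM in I/R and 0.431 CPM in sham (-0.06). Cdh16 (a kidney cadherin) gave 2 counts over the 3 I/R libraries and 0 over the 3 sham libraries, and Cdh17 (of the gut) 0 in I/R and 2 in sham. Neither was tested.

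The delta-1 protocadherins (Pcdh1, Pcdh7, Pcdh9 and Pcdh11x) share a long cytoplasmic part, and 3 of the 4 lay above 0, with a median log2 fold change of 0.22. Pcdh7 measured 64.1, 61.1 and 67.5 CPM in I/R, against 52.1, 48.4 and 52.5 CPM in sham. The groups stood apart, with a log2 fold change of 0.33 ± 0.09 (SE), and the edgeR adjusted p was 0.166. Pcdh9 measured 68.2, 72.9 and 83.7 CPM in I/R, against 63.6, 66.8 and 61.4 CPM in sham, again without overlap (log2 fold change 0.23, edgeR adjusted p = 0.477). Pcdh11x, on the X chromosome, had a log2 fold change of 0.21. Pcdh1 measured 212, 231 and 198 CPM in I/R, against 261, 283 and 214 CPM in sham, and the groups overlapped through I/R 2 and sham 3 (log2 fold change -0.24, 95% interval -0.51 to 0.02).

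The delta-2 protocadherins are known for roles in synapses and axon growth, and 2 of the 5 lay above 0. Pcdh17 measured 32.6, 37.5 and 37.6 CPM in I/R, against 31.6, 28.7 and 31 CPM in sham. Every I/R value lay above every sham value (log2 fold change 0.24 ± 0.10, edgeR adjusted p = 0.457). Pcdh10 averaged 61.5 ± 5.0 CPM in I/R and 64.2 ± 3.69 CPM in sham (SD, n = 3 each; log2 fold change -0.06). Pcdh8, Pcdh18 and Pcdh19 had log2 fold changes of -0.10, 0.01 and -0.02. Of the remaining single protocadherins, Pcdh12 (of endothelium) stood at -0.05 and Pcdh15 (the partner of Cdh23 in tip links) at 0.14. Pcdh20 gave 14 counts in I/R and 7 in sham and was not tested.

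**Figure D4:**
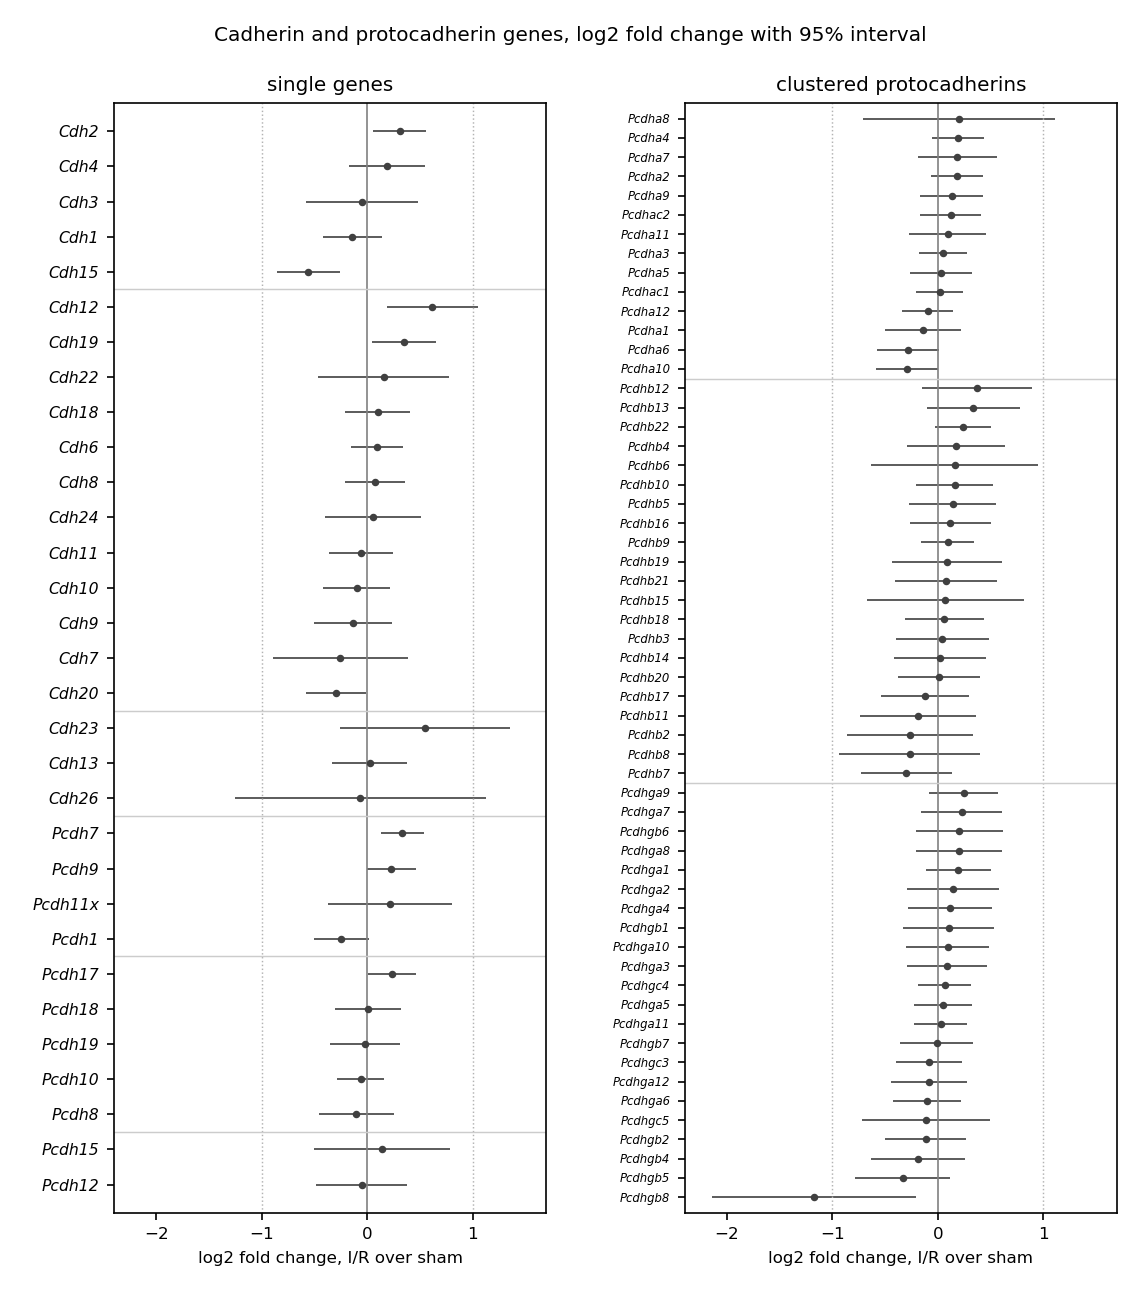
Log2 fold change (I/R over sham, points) with 95% interval (bars) for the 88 genes tested, single genes on the left and clustered protocadherins on the right, grouped by subfamily. Dotted lines mark a 2-fold change. The intervals of 83 genes lie within the dotted lines, and the points spread on both sides of 0.

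The clustered protocadherins were expressed broadly and stood at like sums in both groups. The 14 alpha genes together measured 335.8, 386.6 and 413.1 CPM in I/R, against 367.2, 383.3 and 345.3 CPM in sham. The 22 beta genes measured 90.05, 96.02 and 95.32 CPM in I/R, against 93.78, 90.03 and 83.76 CPM in sham. The 22 gamma genes measured 294.5, 345.3 and 350.4 CPM in I/R, against 340.1, 362.3 and 275.5 CPM in sham. The groups overlapped in all 3 clusters, and the log2 ratios of the group means were 0.05 for alpha, 0.07 for beta and 0.02 for gamma. These sums were described without a test.

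The genes of the alpha cluster share their last exons with each other, as do those of the gamma cluster. How reads over shared exons were counted is not stated, so counts of single alpha and gamma genes are uncertain. Values that were not whole numbers in all 6 libraries were found for 14 of 14 alpha and 21 of 22 gamma genes, against 2 of 22 beta genes, which have no shared exons. Among single genes, Pcdh7 and Cdh11 had such values as well, and their source was not tested. Within the alpha cluster, the C-type genes, which are chosen less randomly than their neighbours, gave the most reads. Shares within each cluster were taken per length, as percent of the cluster's summed TPM. Pcdhac2 made up 35.5% ± 1.28 in I/R and 33.8% ± 2.57 in sham (SD, n = 3 each). Pcdhac1 made up 17.8% ± 0.131 in I/R and 18.2% ± 0.549 in sham. Within the gamma cluster, Pcdhgc3 made up 27.6% ± 1.24 in I/R and 29.5% ± 1.46 in sham. In the beta cluster, Pcdhb9 made up 17.6% ± 1.49 in I/R and 17.3% ± 0.912 in sham. The log2 fold changes were 0.12 for Pcdhac2, 0.02 for Pcdhac1 and -0.08 for Pcdhgc3.

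By level per length, the C-type alpha genes held 22.6% of the clustered total in I/R and 21.9% in sham, and the other alpha genes 19.8% in I/R and 20.3% in sham. Beta genes held 14.4% in I/R and 14.1% in sham. Among gamma genes, the A type held 20.3% in I/R and 19.6% in sham, the B type 6.62% in I/R and 6.93% in sham, and the C type 16.3% in I/R and 17.2% in sham. No isoform class differed by more than 1 percentage point between the group means.

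Of the alpha genes, 10 of 14 lay above 0 (median log2 fold change 0.07). Pcdha10 measured 11.4, 14.2 and 11 CPM in I/R, against 14.3, 14.6 and 15.9 CPM in sham, and Pcdha6 measured 12, 15.3 and 15.5 CPM in I/R, against 16, 18.5 and 17.8 CPM in sham. Both lay lower in every I/R library, by -0.29 on the log2 scale, with edgeR adjusted p-values of 0.481 and 0.483. Pcdha2 lay higher in every I/R library (15.6, 16.3 and 17.1 CPM in I/R, against 15.3, 14.3 and 13.6 CPM in sham). Pcdha4 overlapped, with a log2 fold change of 0.19.

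Of the 21 beta genes tested, 16 lay above 0 and 5 below (median 0.07). Pcdhb22 measured 11.7, 11.2 and 12.5 CPM in I/R, against 10.7, 9.45 and 9.87 CPM in sham (log2 fold change 0.24, edgeR adjusted p = 0.533). Pcdhb13 measured 3.31, 3.20 and 3.79 CPM in I/R, against 3.19, 2.75 and 2.21 CPM in sham (0.34, edgeR adjusted p = 0.618). Neither overlapped between the groups, though Pcdhb13 in I/R 2 and sham 1 all but met. Pcdhb12 overlapped (0.37). Pcdhb1 gave 0 counts in I/R and 2 in sham and was not tested.

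Of the 22 gamma genes, 13 lay above 0 and 9 below (median 0.05). Pcdhgb8 had the lowest fitted fold change of the family, at a low level. It measured 0.297, 0.242 and 0.593 CPM in I/R, against 1.08, 0.950 and 0.566 CPM in sham. I/R 3 lay above sham 3, and the log2 fold change was -1.18 ± 0.43 (SE; 95% interval -2.14 to -0.21; edgeR adjusted p = 0.356). Pcdhga9 (log2 fold change 0.25) and Pcdhgb5 (-0.33) overlapped between the groups.

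The groups did not overlap for 12 of the 88 genes (13.6%), against 17.1% of all genes tested. All I/R values lay above all sham values for 8 genes (9.09%, against 9.23%) and below for 4 (4.55%, against 7.83%). These shares were near or below the background.

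**Figure D5:**
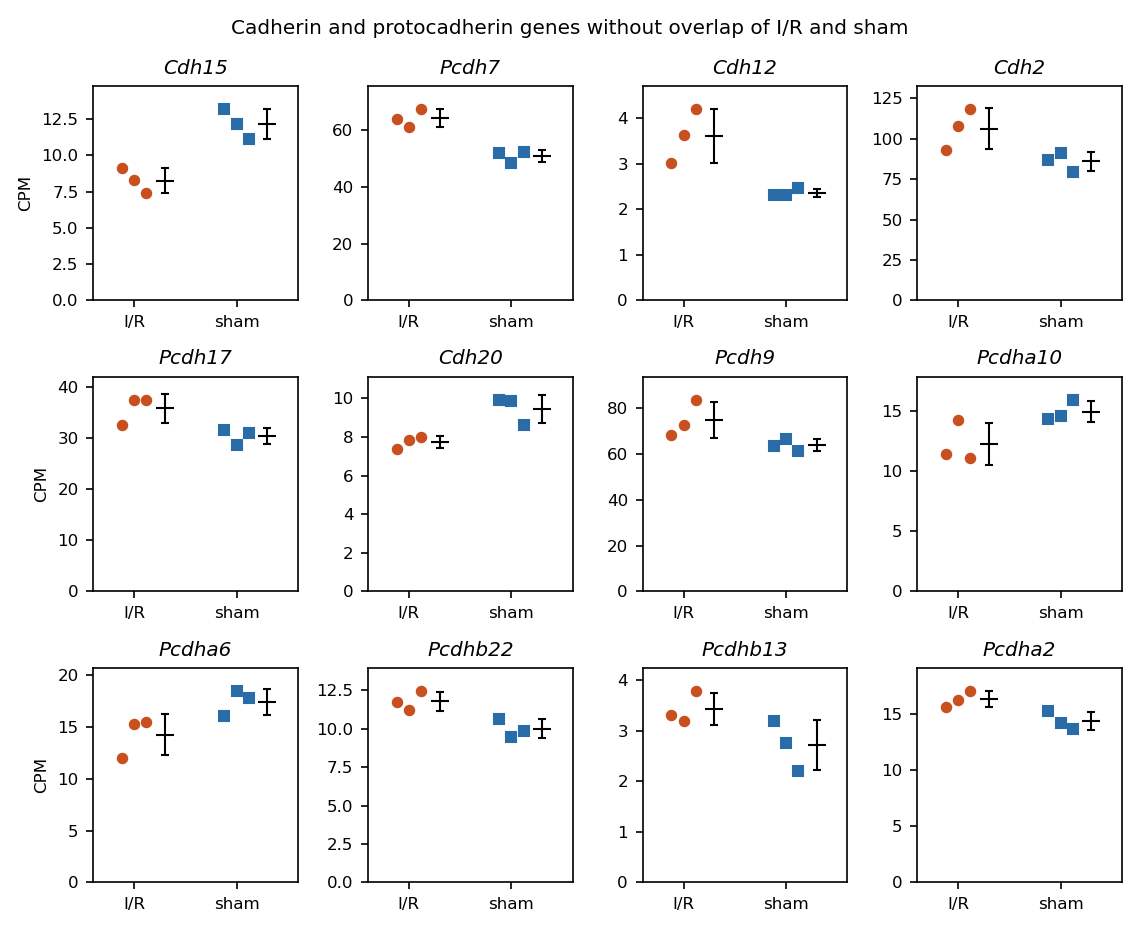
Levels (CPM, axes from 0) of the 12 genes whose I/R (orange circles) and sham (blue squares) values did not overlap, with group mean and SD in black, in order of p. Cdh15, Cdh20, Pcdha10 and Pcdha6 are lower in I/R and the other 8 higher, and none passed the test.

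Genes that work with cadherins were drawn from 7 lists. Of 115 listed genes, 92 were tested and 0 were called, against 1.15% of all genes tested. An unadjusted p under 0.05 was found for 7 of the 92 (7.61%), against 10.5% of all genes tested. Their median log2 fold change was 0.03, with 55 of 92 above 0, against 50% of all genes tested. DESeq2 and limma-voom also called 0.

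Among 13 catenins and armadillo partners tested, 8 lay above 0 and 5 below. The smallest p-values belonged to Ctnnal1, an alpha-catenin relative (log2 fold change -0.22, edgeR adjusted p = 0.490), and Pkp2, a desmosomal plaque protein (0.52, 0.534). Ctnnb1 (beta-catenin), named for its role after its values were seen, averaged 483 ± 41.1 CPM in I/R and 518 ± 28.0 CPM in sham (SD, n = 3 each; log2 fold change -0.10). Of 13 other members of the cadherin superfamily, 5 lay above 0, with Cdhr1 at 0.34 (edgeR adjusted p = 0.343) and Clstn3, a synaptic calsyntenin, at -0.23 (0.483). Of 11 nectins and plaque genes, 8 lay above 0, with the adhesion molecules Cadm2 at 0.23 (0.530) and Cadm1 at 0.16 (0.571).

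Repressors and activators of cadherin genes split evenly, with 5 of 11 above 0. The repressors Twist1 and Snai2 had log2 fold changes of -0.79 (edgeR adjusted p = 0.423) and 0.88 (0.443), both at low levels. Twist1 averaged 0.540 CPM in I/R and 0.939 CPM in sham, and Snai2 0.619 CPM in I/R and 0.334 CPM in sham. Of 10 genes of proteases that cut cadherins and of their partner subunits, 5 lay above 0, with Adam17 at -0.32 (0.381) and Adam15 at 0.20 (0.667). Of 18 regulators of the clustered genes' chromatin, 14 lay above 0 (median 0.10), with the cohesin subunit Stag1 at 0.33 (0.264) and the cohesin loader Nipbl at 0.30 (0.441). Of 16 signalling partners of protocadherins, 10 lay above 0 (median 0.10), with Abi1, of the actin-regulating WAVE complex, at 0.20 (0.479) and the kinase Fyn at 0.19 (0.488).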

How the data were processed

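The authors deposited 1 table of estimated read counts per gene (expected counts, not scaled) for 6 libraries, with Pfam domains and gene lengths. Values were rounded to whole numbers, although the planned test had assumed whole counts. GRCm39, HISAT2, StringTie and fastp appear in the submitters' processing notes, without versions or roles, and neither these nor the labels state how reads were counted or with which strand setting.

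Library totals were 20234079, 20931650 and 22010227 counts in I/R 1 to 3 and 20390927, 20124324 and 19092650 in sham 1 to 3. No replicate pair agreed within sampling noise (chi-square per degree of freedom 4.05 to 27.9). Limits from counts cover counting error only. The test was edgeR 4.0.16 (quasi-likelihood, TMM, filter on low counts, two-sided, Benjamini-Hochberg over 16346 genes) in R 4.3.3, checked on simulated data. CPM uses TMM-scaled library sizes. limma 3.58.1 and DESeq2 1.42.0 were alternatives. Promoters came from RefSeq, and 22 of the 92 genes matched.

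The members and gene lists were chosen with earlier results of these data known. Named genes were those without overlap at 1 CPM or more, the 12 of highest level, all single members of at least 1 CPM, the 3 smallest p-values of each cluster and 2 of each list.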

Additional observations from a re-analysis of the deposited data

How the results depend on the processing

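Under 14 alternative settings (other normalizations, DESeq2, limma-voom, other filters, the replicate block, each library left out and sham 2 alone against I/R), 0 family members and 0 genes of the partner lists were called in either direction. In the fit on sham 2 alone, that library is assumed to vary like the others. Without I/R 1 and sham 3 together, chosen after seeing the data, 1 was higher (Cdh19) and 1 lower (Cdh15). Nothing in the labels says that the replicate numbers pair mice. Deviations of same-numbered libraries from their group means correlated at -0.165, 0.240 and -0.181, which cannot show whether mice were paired. With the replicate block, 0 members were called, and the adjusted p of Cdh15 was 0.1845 (edgeR), while calls over all genes were 63 against 188. They were 32 for sham 2 alone, 312 with DESeq2, 296 without I/R 1 and sham 3, 287 with length-corrected offsets, 494 without a filter (of 29449 genes), and 87 to 181 with 1 library left out. Small changes turned sign. With 1 library left out, log2 fold changes ran from -0.15 to 0.079 for Cdh11, -0.078 to 0.16 for Cdh13, -0.0001359 to 0.24 for Cdh18, -0.004675 to 0.44 for Cdh22, -0.14 to 0.17 for Cdh24, -0.27 to 0.18 for Cdh3, -0.20 to 0.042 for Pcdh12, -0.098 to 0.36 for Pcdh15, -0.074 to 0.13 for Pcdh18, -0.094 to 0.084 for Pcdh19, -0.20 to 0.027 for Pcdh8, -0.052 to 0.093 for Pcdhac1 and -0.22 to 0.039 for Pcdhgc3. Against sham 2 alone they were -0.048 for Cdh13, -0.076 for Cdh24, -0.092 for Cdh4, 0.078 for Cdh7, 0.072 for Pcdh12, 0.063 for Pcdh19, -0.049 for Pcdhac1 and -0.072 for Pcdhac2. Without I/R 1 and sham 3 they were 0.024 for Cdh11, -0.022 for Cdh22, -0.21 for Cdh24, 0.033 for Cdh9 and 0.15 for Pcdh19. They were -0.0006507 for Pcdh18 with upper-quartile scaling, -0.009056 for Pcdh18 and -0.001024 for Pcdhac1 with a filter of 1 CPM in 3 libraries, and -0.023 for Pcdh18 and -0.017 for Pcdhac1 with length-corrected offsets. The cause was not tested. Depth limits genes under 1 CPM, where 4 of the 88 genes tested lie.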
